A study of Mus musculus with 4 samples.

Results

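The genes described here encode the Wnt pathway, a signalling route that controls growth and cell polarity. Its members were the probe sets whose 1 annotated symbol is a Wnt ligand, a Frizzled receptor (Fzd), an Sfrp, a Dkk, a Dvl or one of 20 further pathway genes named one by one. The rule found 64 of the 41345 probe sets on the array, standing for 60 of 22180 genes. It used symbols only, no measured value, though it was chosen with earlier results of these data known. Tcf7 was not analysed here, and Fzd10os, a transcript from the strand opposite Fzd10, entered through the spelling of its symbol.

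RNA was measured on Affymetrix arrays from 4T1Br, a brain-tropic subline of the mouse mammary tumour line 4T1, with 2 arrays in each of 2 groups. The sample titles call the cells 4T1 and the cell line field calls them 4T1Br. All cells had been transduced with lentivirus and selected with puromycin. The shControl group carried a control hairpin and the shYTHDF3 group a hairpin against YTHDF3, a cytoplasmic protein that reads the mRNA mark N6-methyladenosine. The question was which transcripts are more or less abundant once YTHDF3 is reduced. The labels name no hairpin sequence and do not say how many hairpins were used or whether replicate arrays stand for separate cultures. The p-values therefore rest on the spread between these 4 arrays alone, and that spread may be technical. In such bulk samples, fewer cells of a type and less RNA per cell cannot be told apart.

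Wnt proteins are lipid-modified ligands that bind Frizzled receptors together with the co-receptors Lrp5 and Lrp6. In the canonical branch, Dishevelled proteins then hold back a destruction complex of Apc, Axin and Gsk3b, and beta-catenin collects in the nucleus, where it works with TCF/LEF factors on target genes. Frizzled receptors also feed a planar cell polarity branch and a calcium branch that do without beta-catenin. The pathway shapes mammary gland development and is active in part of breast cancers.

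Promoters of members are shown first because the pathway ends at TCF/LEF factors, which recognise a short core motif. RefSeq promoters (GRCm38.p6) were given for 40 of the 60 genes, 49 promoters in all. The motif CTTTGAT, searched on both strands in the 250 bases before each start, stood in 2 of the 49 (4.08%) and in 3.21% of all 32851 promoters. The holders were the ligand genes Wnt11, at chr7:98834862-98835111 on the plus strand, and Wnt5b, at chr6:119449387-119449636 on the minus strand. Lgr4, at chr2:109917397-109917646 on the plus strand, is the member with the deepest negative difference and its 250 bases do not hold these letters. Capitals mark the motif, which in Wnt11 reads as its reverse complement. A match in letters is a description and not a bound site.
Wnt11: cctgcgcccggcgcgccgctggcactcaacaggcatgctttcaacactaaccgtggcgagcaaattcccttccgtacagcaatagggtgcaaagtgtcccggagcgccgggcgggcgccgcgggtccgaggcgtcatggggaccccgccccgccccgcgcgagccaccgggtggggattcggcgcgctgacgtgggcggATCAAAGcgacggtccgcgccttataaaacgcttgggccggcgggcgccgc
Wnt5b: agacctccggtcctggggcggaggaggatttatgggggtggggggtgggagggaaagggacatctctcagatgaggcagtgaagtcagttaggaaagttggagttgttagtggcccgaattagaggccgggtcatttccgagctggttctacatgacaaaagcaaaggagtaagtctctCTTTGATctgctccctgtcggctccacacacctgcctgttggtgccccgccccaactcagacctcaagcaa
Lgr4: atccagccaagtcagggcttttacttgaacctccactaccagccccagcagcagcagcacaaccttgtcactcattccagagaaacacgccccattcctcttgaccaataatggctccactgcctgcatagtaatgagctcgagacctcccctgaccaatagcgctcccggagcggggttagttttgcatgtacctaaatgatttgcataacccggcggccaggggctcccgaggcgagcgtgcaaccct
Both holders read lower on the shYTHDF3 arrays without passing the test. Wnt11 read 4.58 and 4.61 (log2) in shControl and 4.46 and 4.30 in shYTHDF3, and Wnt5b read 4.84 and 4.80 against 4.65 and 4.43. The differences were -0.22 (SE 0.10, limma adjusted p = 0.268) and -0.28 (SE 0.11, limma adjusted p = 0.207). Both genes were dim, with means of 4.49 and 4.68 against the background level of log2 4.28 given below. Of all 13056 genes tested, 6387 read lower. A link between the motif and these differences was not tested. No promoter was given for Apc, Axin1, Dkk3, Dkk4, Fzd10os, Fzd2, Fzd3, Fzd6, Fzd8, Lgr5, Lrp5, Lrp6, Porcn, Sfrp1, Sfrp4, Wnt10a, Wnt5a, Wnt7b, Wnt8a or Znrf3.

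Ythdf3 itself read 8.98 and 8.81 on the shControl arrays against 8.21 and 8.16 on the shYTHDF3 arrays, and it fell by 0.71 on the log2 scale, to 61.1% of the shControl level (SE 0.10, limma adjusted p = 0.0355). With 1 array left out that adjusted p lay between 0.138 and 0.193. The array medians over all probe sets lay between 4.42 and 4.47. Of 10 epithelial markers 7 were above background, with Krt8 at 10.11 and Krt18 at 10.51 in shControl, while Epcam, at a mean of 3.93, was not. The epithelial list averaged 6.06 and 6.08 in shControl and 6.34 in both shYTHDF3 arrays, and 12 fibroblast and vessel markers, 9 of them above background, averaged 5.21 and 5.38 against 5.01 and 4.99. By limma, Krt7 of the first list rose from a mean of 5.57 to 7.07 and the other 6 did not pass. Of those, Krt18 at 0.57 and Krt8 at 0.31 were separate and higher, and Krt19 at -0.53 was separate and lower. The rest overlapped. Dcn and Pdgfra of the second fell by 2.65 and 0.61 and the other 7 did not pass, with Cspg4 at -0.33 and Pdgfrb at 0.21 also separate between groups. Of 9 immune markers 2 were above background, Cd68 with a difference of -0.72 and Nkg7 with 0.15, while Ptprc, at 3.22, was not. Of 9 neural and glial markers 4 were, with Map2 at a difference of 0.82 and Syt1 at -0.35, while Gfap, at 3.94, was not. None of these 6 passed limma's test, and Cd68 and Map2 had an unadjusted p under 0.05. The part of these marker differences in the results below was not tested.

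Of the 60 Wnt pathway genes, 43 lay above the background level of log2 4.28, set from olfactory receptor probe sets, and were tested. Fzd3, a Frizzled receptor, and Sfrp1, a secreted protein that binds Wnt ligands, rose in shYTHDF3. The other 41 did not pass limma's test at an adjusted p of 0.05, and none fell (2 of the 43 were lower at an unadjusted p under 0.05). The 2 calls make 4.65% of the members tested, against 2.73% of all 13056 genes tested, of which 1.28% rose and 1.45% fell. With 43 members tested this share lies near the background. At an unadjusted p under 0.05 there were 8 members (18.6%, against 22.6% of all genes), 6 higher and 2 lower; over all genes 12.2% were higher and 10.4% lower. In 20 members (46.5%, against 54.0% of all genes) the 2 groups did not overlap, 10 with shYTHDF3 above and 10 with it below (28.3% and 25.7% of all genes). In 3 of them, Fzd3, Sfrp1 and Wnt10a, the difference also reached 0.5 in size, as in 6.09% of all genes. The median difference of the members was 0.0065 against 0.0057 over all genes tested, and their median absolute difference was 0.14 against 0.15. The members ran from -0.50 for Lgr4 to 0.85 for Fzd3, inside a range over all genes of -2.65 to 1.91.

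**Figure D1:**
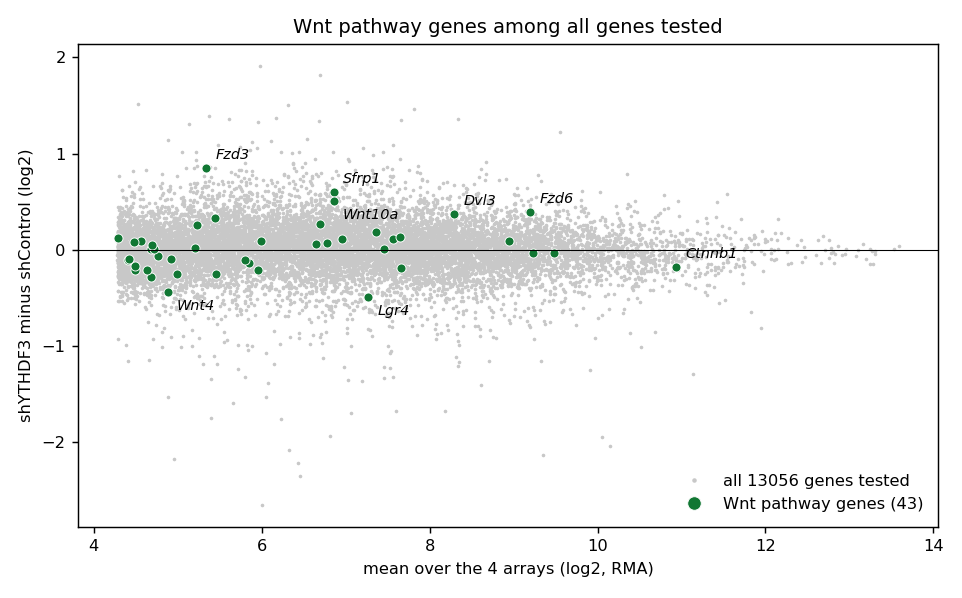
Each point is a gene, placed by its mean over the 4 arrays (log2, RMA) and by its shYTHDF3 minus shControl difference (log2). The 43 Wnt pathway genes lie between -0.50 and 0.85 and within the cloud of all 13056 genes tested.

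Frizzled receptors, which bind Wnt ligands at the cell surface, held 1 of the calls. Fzd3, known for its part in axon guidance and planar polarity, read 5.02 and 4.81 in shControl against 5.61 and 5.92 in shYTHDF3. Both shYTHDF3 arrays lay above both shControl arrays, with a gap of 0.59 between the groups. The means were 4.92 ± 0.14 and 5.76 ± 0.22 (SD, n = 2 each), a rise of 0.85 on the log2 scale or 1.80-fold (SE 0.14, limma adjusted p = 0.0440). Fzd6, close to Fzd3 in sequence and also known for tissue polarity, read 8.99 and 9.01 against 9.38 and 9.40. Its groups were 0.37 apart, far more than its replicates, and the difference of 0.39 (SE 0.09) did not pass (limma adjusted p = 0.0802). Of the other 6 Frizzled genes tested, Fzd2 differed by 0.33, Fzd5 by 0.09 and Fzd9 by 0.0037, while Fzd1, Fzd4 and Fzd7 differed by -0.14, -0.11 and -0.19. Fzd8 and Fzd10 were under the background, at means of 3.76 and 2.65, as was Fzd10os at 3.90. By median the 8 tested differed by 0.05, with 1 higher by limma, 0 lower and 7 not passing. That call makes 12.5% of the 8, against 2.73% of all genes tested, and rests on 1 gene. An unadjusted p under 0.05 by limma was reached by 2 of them, both higher. This share of 25% lies near the 22.6% of all genes, of which 12.2% were higher and 10.4% lower.

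Secreted antagonists keep Wnt ligands or Lrp co-receptors from signalling, and 4 of the 8 measured were above background. Sfrp1, a decoy with a Frizzled-like domain that is often silenced in breast cancer, read 6.62 and 6.52 in shControl against 7.13 and 7.19 in shYTHDF3. Its groups were 0.52 apart, more than the spread of either pair. The means were 6.57 ± 0.07 and 7.16 ± 0.04 (SD, n = 2 each), a rise of 0.60 on the log2 scale or 1.51-fold (SE 0.09, limma adjusted p = 0.0417). Dkk3, a divergent member of the Dickkopf family, read 4.97 and 5.22 against 5.42 and 5.30. The difference of 0.26 (SE 0.12) did not pass (limma adjusted p = 0.270). Dkk2 and Dkk4, with differences of 0.12 and 0.09, had overlapping groups. Below background were Sfrp2, Sfrp4, Sfrp5 and Dkk1, the last at a mean of 4.35 in shControl and 3.93 in shYTHDF3.

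The 2 calls were close to the threshold. With 1 array left out, Fzd3 differed by 0.95 and 0.75 when shControl 1 or 2 was dropped and by 1.00 and 0.69 when shYTHDF3 1 or 2 was, and none of these passed (limma adjusted p = 0.155, 0.196, 0.116 and 0.201). The same omissions gave Sfrp1 0.65, 0.55, 0.63 and 0.57 (limma adjusted p = 0.151, 0.186, 0.158 and 0.224). Such a fit has fewer residual degrees of freedom. Neither call held when dim genes were kept in (limma adjusted p = 0.100 for Fzd3 and 0.104 for Sfrp1) or with all probe sets past the filter tested together (0.198 and 0.192). With an intensity trend in limma's variance model, 6 of the 43 members passed: Fzd3, Sfrp1, Wnt10a, Fzd6 and Dvl3 higher and Lgr4 lower. Over all genes 1426 of 13056 did, 730 higher and 696 lower. Over its 13 alternatives the adjusted p ran from 0.0107 to 0.201 for Fzd3 and from 0.00753 to 0.224 for Sfrp1.

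**Figure D2:**
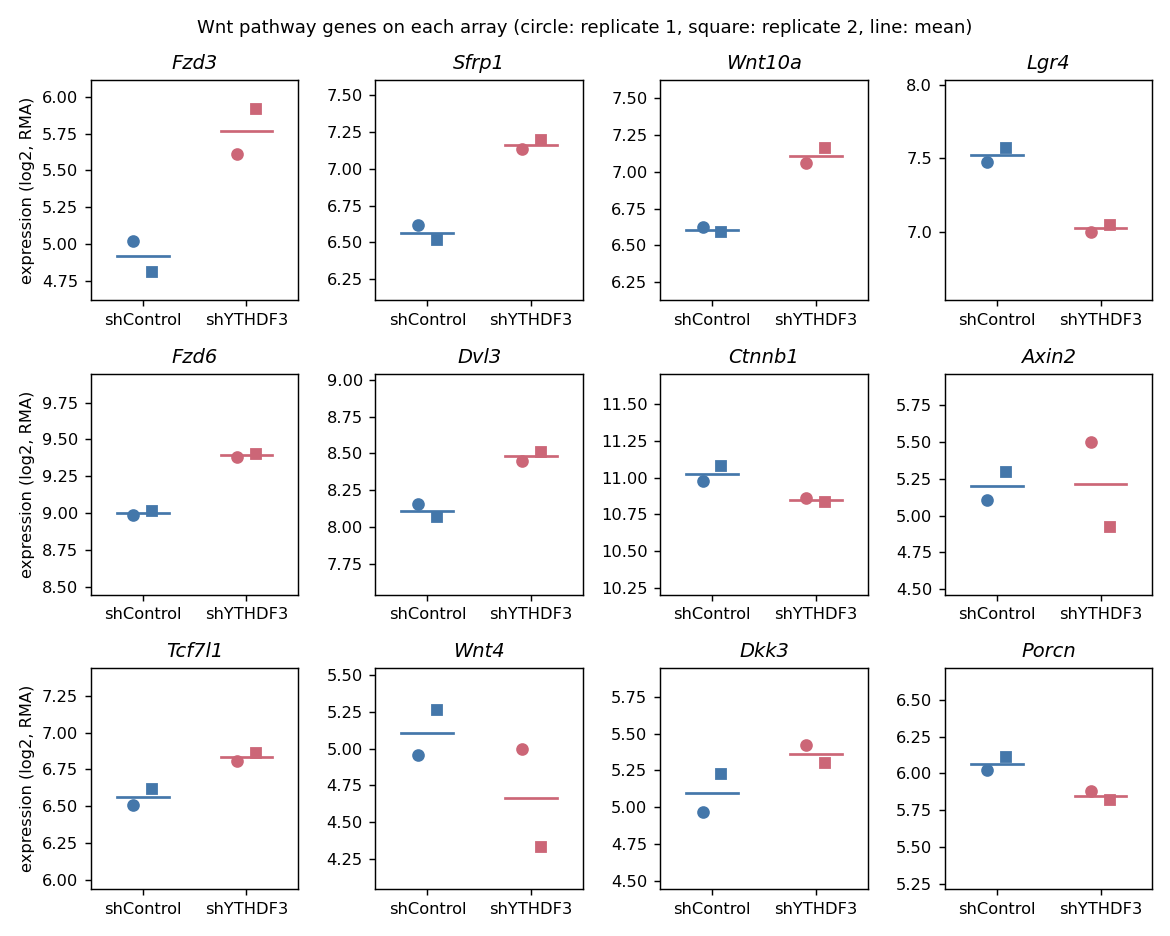
Expression (log2, RMA) of 12 Wnt pathway genes on each array, with 1 panel per gene, every panel spanning 1.5 log2 units; circles are replicate 1, squares replicate 2 and lines group means. Fzd3, Sfrp1, Wnt10a, Fzd6, Dvl3, Tcf7l1 and Dkk3 show separate and higher shYTHDF3 values, Lgr4, Ctnnb1 and Porcn separate and lower ones, and Axin2 and Wnt4 overlap.

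Of the Wnt ligands 13 of 19 were above background, and limma called 0 of them. At an unadjusted p under 0.05 Wnt10a was higher and Wnt5b lower (15.4% of the ligands tested, against 22.6% of all genes). Wnt10a, a ligand with known roles in skin and teeth, read 6.62 and 6.59 in shControl against 7.06 and 7.16 in shYTHDF3. Its groups were 0.43 apart, yet the difference of 0.50 (SE 0.09, 1.42-fold) did not pass (limma adjusted p = 0.0550). It passed when the filter stood at the median level (limma adjusted p = 0.0477), as it did under an intensity trend (0.0189), within a range of 0.0158 to 0.276 over the alternatives. With the filter at the median level, limma called 488 of 12453 genes in all, against 356 of 13056 in the main fit. Wnt4, a ligand of mammary side-branching, read 4.95 and 5.26 against 4.99 and 4.33, so that the groups overlapped. Its difference of -0.44 (SE 0.23, limma adjusted p = 0.319) was -0.11 without shYTHDF3 2, the lowest array. Wnt7b, read at 6.83 and 6.96 against 7.08 and 6.93, differed by 0.11 and overlapped as well.

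Of the 13 ligands tested, 9 differed below 0 and 4 above, with a median of -0.17. Over all 13056 genes tested, 6387 differed below 0 and 6669 above, with a median of 0.0057. The 9 ligands below 0 were dim, with means over the 4 arrays from 4.41 (Wnt7a) to 5.46 (Wnt9a) against a background of 4.28. Of the 4 above 0, Wnt6 and Wnt9b lay at 4.48 and 4.69, and Wnt10a and Wnt7b at 6.86 and 6.95. The sign turned with 1 array left out in 3 of the 9 (Wnt3a, Wnt7a and Wnt10b) and 1 of the 4 (Wnt6). Wnt5a and Wnt8a read lower without overlap, as Wnt5b and Wnt11 did, at differences of -0.10 and -0.21. The Wnt5a groups were only 0.03 apart, and Wnt8a had the identical value, 4.53, on both shYTHDF3 arrays. Wnt3a, Wnt7a, Wnt9a and Wnt10b, at -0.17, -0.11, -0.25 and -0.25, and Wnt6 and Wnt9b, at 0.08 and 0.04, had overlapping groups. Wnt1, Wnt2, Wnt2b, Wnt3, Wnt8b and Wnt16 were under the background. Porcn, the acyltransferase that attaches the lipid to Wnt proteins, read 6.02 and 6.11 in shControl against 5.88 and 5.82 in shYTHDF3. That difference of -0.22 (SE 0.09) did not pass (limma adjusted p = 0.243).

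Among receptors that set the strength of the response, Lgr4 had the deepest negative difference of all members tested. Lgr4 binds R-spondins, which keep the ubiquitin ligases Rnf43 and Znrf3 from removing Frizzled receptors. It read 7.47 and 7.57 in shControl against 6.999 and 7.05 in shYTHDF3, 0.42 apart. The difference of -0.50 (SE 0.09, 70.9% of the shControl level) did not pass (limma adjusted p = 0.0561). With the filter at the median level it did (limma adjusted p = 0.0487), as with an intensity trend (0.0142), and over the alternatives it ran from 0.0116 to 0.245. Calls over all genes also rose with the median filter, to 488 of 12453. Lgr5, a relative of Lgr4 and a stem cell marker, was under the background on both of its probe sets, at means of 3.45 and 3.40.

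Znrf3 read 7.51 and 7.39 against 7.47 and 7.44, a difference of 0.0062 (95% interval -0.23 to 0.24). Rnf43 differed by 0.0065 (95% interval -0.24 to 0.26). Nkd2, which binds Dishevelled and restrains it, differed by -0.07 (95% interval -0.39 to 0.26), and Nkd1 was under the background. The groups overlapped in these 3 tested genes.

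The co-receptors Lrp5 and Lrp6, which take up the signal beside Frizzled, overlapped between groups. Lrp5 read 8.83 and 8.96 against 9.06 and 8.92, a difference of 0.09 (95% interval -0.16 to 0.35, limma adjusted p = 0.645). Lrp6 read 9.30 and 9.20 against 9.16 and 9.25, a difference of -0.04 (95% interval -0.28 to 0.20, limma adjusted p = 0.849). A second Lrp6 probe set differed by 0.11. Ror2, a receptor tyrosine kinase that binds Wnt5a, differed by -0.10 (95% interval -0.37 to 0.17), and its relative Ror1 was under the background.

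Dishevelled proteins relay the signal from Frizzled into the cell. Dvl3 read 8.15 and 8.07 in shControl against 8.45 and 8.51 in shYTHDF3, with 0.30 between the groups. Its difference of 0.37 (SE 0.09, 1.29-fold) did not pass (limma adjusted p = 0.0981), except with an intensity trend (0.0214), in a range of 0.0197 to 0.369 over the alternatives. Dvl1 read 7.18 and 7.36 against 7.49 and 7.41, a difference of 0.18 (SE 0.11, limma adjusted p = 0.370). Dvl2 overlapped, with a difference of 0.05.

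The destruction complex and beta-catenin gave no call among 5 genes, and none at an unadjusted p under 0.05 by limma. Ctnnb1, which encodes beta-catenin, read 10.97 and 11.08 in shControl against 10.86 and 10.83 in shYTHDF3. Its groups were separate by 0.11, and the difference was -0.18 (95% interval -0.41 to 0.05, limma adjusted p = 0.325). Arrays read its transcript, while the pathway acts on the stability of the protein. Apc, the scaffold of the complex, differed by 0.14 (95% interval -0.18 to 0.46), Axin1, a second scaffold, by 0.11 and Gsk3b, its kinase, by -0.04.

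Axin2 is both a scaffold of the complex and a feedback target of beta-catenin, widely read as a measure of pathway activity. Its probe set of higher mean read 5.11 and 5.29 in shControl against 5.50 and 4.92 in shYTHDF3, where the 2 shYTHDF3 arrays lay on either side of both shControl arrays. The difference was 0.01 (95% interval -0.48 to 0.50, limma adjusted p = 0.981), and its second probe set differed by -0.06. With 1 array left out, the probe set of higher mean was chosen anew on the arrays kept. The Axin2 difference then ran from -0.21, on the second probe set, to 0.30, on the first. This range mixes both probe sets, and these arrays bound Axin2 loosely.

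The TCF/LEF factors carry the signal to DNA. Tcf7l1, known mainly as a repressor of Wnt targets, read 6.51 and 6.61 against 6.80 and 6.86. The groups did not overlap, but the difference of 0.27 (SE 0.10) did not pass (limma adjusted p = 0.177). Tcf7l2 read 6.81 and 6.67 against 6.83 and 6.81, a difference of 0.07 (95% interval -0.17 to 0.31). Lef1 was under the background, at 3.58 and 3.96 in shControl against 4.06 and 4.21 in shYTHDF3, and was not tested.

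**Figure D3:**
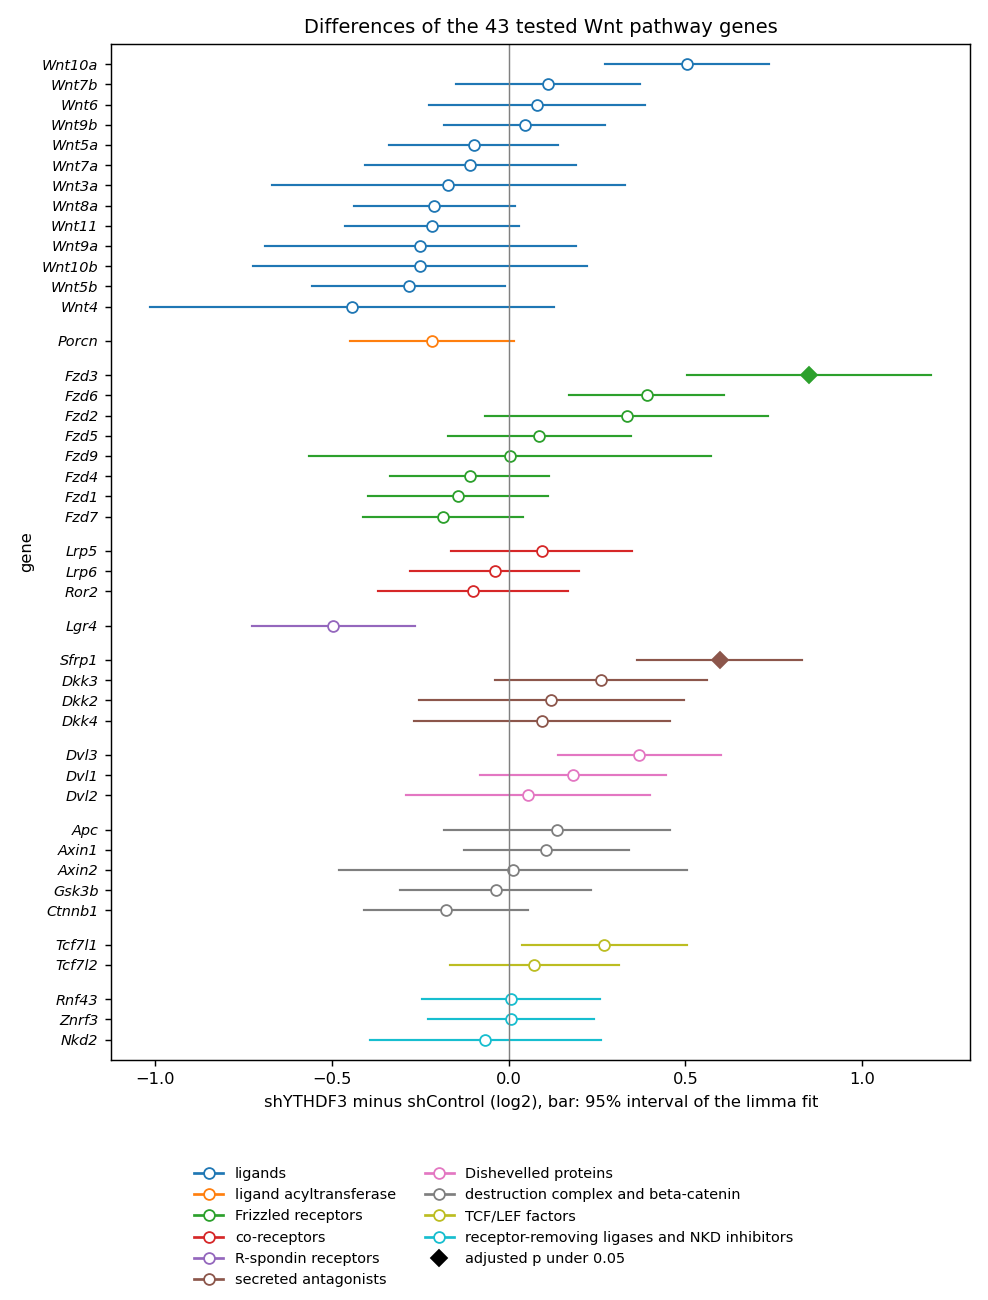
Differences (shYTHDF3 minus shControl, log2) of the 43 tested Wnt pathway genes with 95% intervals of the limma fit, grouped by role; filled diamonds mark an adjusted p under 0.05. Fzd3 at 0.85 and Sfrp1 at 0.60 are the only diamonds, and the intervals of Wnt10a, Fzd6, Dvl3, Tcf7l1, Lgr4 and Wnt5b also leave out 0.

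Other genes of the pathway were read from 5 lists, to be set against the same shares of all genes: 2.73% called (1.28% higher and 1.45% lower) and 22.6% at an unadjusted p under 0.05 (12.2% higher and 10.4% lower). Of 28 tested genes of beta-catenin turnover and cytoplasmic relay, 1 rose, 0 fell and 27 did not pass (median 0.04); 7 of the 28 had an unadjusted p under 0.05 by limma, 4 of them lower. The riser was Caprin2, an RNA-binding protein reported to aid phosphorylation of Lrp6, which read 5.97 and 5.999 against 6.57 and 6.78, a log2 rise of 0.69 (SE 0.11, limma adjusted p = 0.0407). Of 31 genes of the planar polarity and calcium branches, 1 rose, 1 fell and 29 did not pass (6.45% called, median 0.08), and 10 (32.3%) had an unadjusted p under 0.05, 7 of them higher. Prickle1, a core polarity protein, read 7.04 and 7.21 against 6.32 and 6.44 and fell by 0.74 (SE 0.11, limma adjusted p = 0.0360). Camk2b, a subunit of calcium/calmodulin-dependent kinase, read 5.05 and 4.98 against 5.67 and 5.87 and rose by 0.75 (SE 0.11, limma adjusted p = 0.0360).

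None of 15 genes of Wnt release and extracellular control passed limma's test (median -0.0046), and 5 (33.3%) had an unadjusted p under 0.05, 4 of them lower. Tpbg, a membrane protein reported to restrain Wnt signalling, differed by -0.36 and Sdc1, a heparan sulfate proteoglycan, by -0.34 (limma adjusted p = 0.0972 and 0.151). Nor did any of 25 nuclear partners of beta-catenin pass limma's test (median -0.02), and 4 (16.0%) had an unadjusted p under 0.05, 3 of them higher. Hipk2, a nuclear kinase, differed by -0.64 (limma adjusted p = 0.0535) and Tle5, a short member of the Groucho family, by 0.51 (limma adjusted p = 0.0671). Hipk2 passed under 5 of its 13 alternatives, with an adjusted p from 0.00312 to 0.251, and Tle5 under 2, from 0.00256 to 0.252.

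Genes reported elsewhere as Wnt or beta-catenin targets read mostly lower. Of 41 tested, 5 fell, 1 rose and 35 did not pass. The falls make 12.2% of the list, against 1.45% of all genes tested, and 18 genes (43.9%) had an unadjusted p under 0.05, 15 of them lower. The list median was -0.21, against 0.01 over all genes. Both the share and the median include Nos2, Ccn1 and Gja1, known to read lower here when the list was written. Nos2, the inducible nitric oxide synthase, read 7.57 and 7.71 against 5.51 and 5.06 and fell by 2.36. Ccn1, a matricellular protein, read 9.19 and 9.44 against 7.84 and 7.96 and fell by 1.41. Gja1, the gap junction protein connexin, read 9.68 and 9.76 against 8.78 and 8.79 and fell by 0.93, and Met, the receptor of hepatocyte growth factor, read 9.01 and 8.94 against 8.31 and 8.04 and fell by 0.80. The fifth, named after its values were seen, was Myc, a growth-driving transcription factor, which read 10.14 and 10.15 against 9.35 and 9.36 and fell by 0.78. Tnfrsf19, a receptor of the tumour necrosis factor family, read 6.39 and 6.46 against 7.01 and 7.22 and rose by 0.70. The limma adjusted p of these 6 genes lay between 0.00816 and 0.0416.

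Many other pathways also act on these targets, and Nos2, Ccn1 and Gja1 were known to read lower here when the list was written, so its count is not independent evidence of a direction. Ccnd1, the cyclin D1 gene and a frequently cited target, read 11.96 and 11.92 against 12.09 and 12.01, a difference of 0.11 (limma adjusted p = 0.529). With 1 array left out, limma called 0 of the 140 listed genes without either shControl array (38 without shControl 1 and 34 without shControl 2 at an unadjusted p under 0.05) and 1, Nos2, without either shYTHDF3 array. The adjusted p of Caprin2, Prickle1, Camk2b, Met, Gja1, Ccn1 and Tnfrsf19 then lay between 0.0785 and 0.210.

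**Figure D4:**
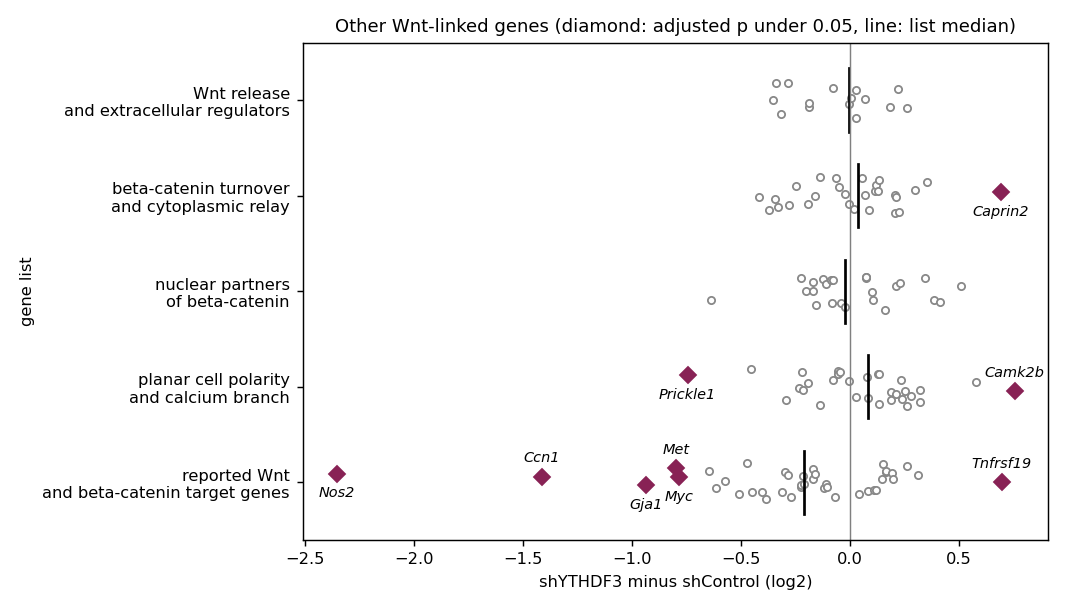
Differences (shYTHDF3 minus shControl, log2) of the 140 tested genes of 5 Wnt-linked lists; open points are single genes, filled diamonds genes with a limma adjusted p under 0.05, and black lines list medians. The target list, written with Nos2, Ccn1 and Gja1 known to read lower, is centred at -0.21 with 5 diamonds below 0 and 1 above. The other medians lie between -0.02 and 0.08.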

How the data were processed

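Expression was measured on 4 Affymetrix arrays, grouped by their titles into shControl (2) and shYTHDF3 (2). The authors deposited 1 value per probe set and array, with RMA as the method per the submitters' processing notes. Their log2 scale was inferred from RMA and from the range of the deposited values. The base and the software are not stated in the labels or the file. RMA makes the arrays' distributions alike, so a shift of most genes one way would not be seen.

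Of 41345 probe sets, 23521 had 1 gene symbol in the platform annotation, 1814 several and 16010 none; 23328 of the first matched a RefSeq gene (GRCm38.p6) by Entrez identifier. A gene took its probe set with the highest mean. The background was the 95th percentile of 1108 olfactory receptor probe sets, and 13056 genes above it were tested with limma 3.58.1 in R 4.3.3 (lmFit, eBayes, two-sided, Benjamini-Hochberg over all 13056, threshold 0.05). Probe set levels were not compared between genes. The step was tested on simulated data.

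The members and lists were chosen with earlier results of these data known. Members to be described with array values were those past the threshold and those with separate groups and a difference of at least 0.5. The rule also took the 2 largest differences in each role, and Ctnnb1, Lrp5, Lrp6, Axin2, Lef1, Tcf7 and Tcf7l2. Tcf7 was not analysed, and Apc, Ror2, Rnf43 and Nkd2 are given by difference and interval only. From each list came up to 4 rises and 4 falls past the threshold, or with none the 2 largest differences. Wnt5b, Wnt6, Wnt7b, Wnt11, Znrf3 and the under-background members shown were added after their values were seen. Plots used matplotlib 3.10.9 (Python 3.11.15).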

Additional observations from a re-analysis of the deposited data

How the results depend on the processing

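Over all genes limma called 356, but 43 without the filter on dim genes, 1426 with an intensity trend, 1465 with that trend and robust estimation, 0 with all probe sets past the filter (3337 at an unadjusted p under 0.05), and 0 to 12 with 1 array left out. For the Wnt pathway genes the 2 calls became 0 without the filter (7 at an unadjusted p under 0.05), 4 with the filter at the median, 6 with either trend setting, 0 with all probe sets (6 at an unadjusted p under 0.05) and 0 to 0 with 1 array left out (7 to 8 at an unadjusted p under 0.05). The 9 calls in the Wnt-linked lists became 2, 26 and 26 without the filter and with the trend settings, 0 with all probe sets (32 at an unadjusted p under 0.05) and 0 to 1 with 1 array left out. Repeated quantile normalization, a common median and the mean of a gene's probe sets kept these counts within 1.5 times. With the filter at the median, limma called 488 of 12453 genes in all, against 356 of 13056 in the main fit. Calls thus rose over all genes too where those of the members rose from 2 to 4. The members' median difference lay between -0.025 and 0.032 in every setting run.

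The replicate numbers are shared by both groups but nothing ties the same-numbered arrays together: their deviations from the group means correlated at -0.066. With the replicate number as a block, limma called 51 genes in all, 0 Wnt pathway genes (9 at an unadjusted p under 0.05) and 2 listed genes.

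With 1 array left out the sign turned in 16 of the 43 tested members, the lowest adjusted p among them being 0.485. With the mean of a gene's probe sets, Axin2 was -0.026 and Lrp6 0.033. With 1 array left out, Apc ran from -0.019 to 0.29 and Axin2, across both of its probe sets, from -0.21 to 0.30. Lrp6 ran from -0.088 to 0.0088, Nkd2 from -0.22 to 0.085 and Rnf43 from -0.080 to 0.093. The others were Wnt3a (-0.48 to 0.14), Wnt10b (-0.54 to 0.04), Wnt6, Wnt7a, Fzd5, Fzd9, Dkk2, Dkk4, Dvl2, Gsk3b and Znrf3; Dkk2 passed the filter in 1 of these fits. Znrf3 also turned with repeated quantile normalization, to -0.011. The cause was not tested. With 2 arrays a group, the number of arrays limits the precision, and 17 of the 60 genes were too dim to test.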

Other observations

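Wnt10a and Wnt6 lie close together on chromosome 1. Wnt10a differed by 0.50 with separate groups, while Wnt6 read 4.33 and 4.55 on the shControl arrays against 4.62 and 4.43, a difference of 0.08 with overlapping groups. The difference between the 2 genes was not tested.

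Some members lay apart between groups at levels under the background, where no test was made. Among all genes tested, 54.0% lay apart. The decoy gene Sfrp4 read 3.53 and 3.55 against 3.80 and 3.77 on the shYTHDF3 arrays. Wnt16 read 3.39 and 3.41 against 3.19 and 3.24. Dkk1, an inhibitor that binds Lrp co-receptors, read 4.21 and 4.49 against 4.19 and 3.66, its lowest value being that of shYTHDF3 2. The Dkk1 groups were only 0.02 apart. Lef1, the Lgr5 probe set of higher mean and the second Sfrp2 probe set were also apart, with shYTHDF3 higher. Their gaps were 0.10, 0.05 and 0.09.

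In the target list, 12 genes had an unadjusted p under 0.05 without passing limma's test over all genes. Of these, 10 read lower: Jun at -0.65, Vegfa at -0.61, Ccn4 at -0.57, Cd44 at -0.51, Sox9 at -0.47, Nr5a2 at -0.45, Klf4 at -0.40, Ets2 at -0.39, Twist1 at -0.31 and Ccn2 at -0.28. The other 2 read higher, Tcf4 at 0.31 and Ppard at 0.26. Their limma adjusted p lay between 0.0610 and 0.214, and they were named after their values were seen.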
